A study of Polypedilum vanderplanki with 72 samples.

Results

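Pv11 cells lacking their own HSF1 and expressing a single isoform of it, V3, were compared with the HSF1 knockout cells (KO) that share their genetic background. Pv11 is a line of cultured cells from Polypedilum vanderplanki, the sleeping chironomid, an African midge with larvae that tolerate desiccation. The comparison was made in 2 treatments, 48 h in 600 mM trehalose (T48) and 6 h of heat shock (HS6h), with 3 V3 libraries against 3 KO libraries in each. These 12 libraries were chosen by their labels from the 72 of the series. The V3 cells carry the HSF1 knockout and are labelled as overexpressing HSF1 isoform V3. KO cells carry the knockout alone, and WT cells are unmodified Pv11. The other lines drawn on here carry the knockout together with V1, V2, V4, V5-6 or a Drosophila HSF1 form (Dma and Dmb). Cells of the V3, V1, V2, V4 and V5-6 lines and WT were also measured 24 h after rehydration that followed 11 days of desiccation (R24), with no KO library at that stage. There are 3 libraries in each of the 24 groups. The protocols call the modified cells clonal lines, and 1 line stands for each form, so that the isoform and the clone that carries it cannot be told apart. The temperature of the heat shock is not given in the sources used here, nor is it stated whether trehalose was present during it. The groups used here include no untreated cells.

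HSF1, heat shock factor 1, is a transcription factor that in other animals is held inactive in unstressed cells, assembles into trimers under stress and binds heat shock elements in the promoters of its targets. Those targets include the genes of the heat shock proteins, chaperones that hold and refold damaged proteins. Alternative splicing can change which parts of such a factor, for DNA binding, trimer formation or activation, a cell makes. Trehalose, the sugar in which Pv11 cells are kept before drying, is known to protect proteins and membranes during water loss.

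PolyA RNA was sequenced, and the values are counts of reads, with 1 transcript per gene taken as the gene's count. The 12 libraries held between 3043636 and 6416185 gene counts, and levels are given as CPM, counts scaled to a common library size with TMM factors. Reads outside any annotated feature came to between 39.0% and 43.3% of gene counts and such reads together. Among the 12 pairs of libraries within the V3 and KO groups, the variance was 2.61 to 3.42 times that of counting error. The labels do not say whether libraries of a group come from separate cultures, so the p-values reflect only how these libraries vary, and that variation may be technical. The deposited IDs are not paired with gene names, and 0 of the 17156 matched the reference table of 17863 loci. The genes below therefore carry no function, and neither the HSF1 transcripts of the V3 and KO cells nor markers of the cell line could be looked up. The intervals and the floor for groups at 0 counts cover counting error only, and that floor is 3 counts over the 3 libraries of a group.

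In trehalose, 1611 genes were higher and 1652 lower in V3 cells than in KO cells, by edgeR's quasi-likelihood test at an adjusted p under 0.05. These were 19.5% and 20.0% of the 8255 genes tested. Differences of 2-fold and more were mostly gains. At least 2-fold higher were 610 genes (7.39%), against 271 that were at least 2-fold lower (3.28%). At least 4-fold higher were 241, against 76 lower, and at least 16-fold higher were 75, against 12 lower. Of the 610, 349 had a mean under 10 CPM and 203 a mean of 10 to 100 CPM, against 116 and 108 of the 271. In more abundant genes lower calls were more frequent. Among the 1086 genes at 100 to 1000 CPM, 256 were higher and 509 lower, 52 and 41 of them at least 2-fold. Among the 163 genes with a mean over 1000 CPM, 36 were higher and 116 lower, 6 of them at least 2-fold in each direction.

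The genes with the largest gains in trehalose had at most 1 read over the 3 KO libraries. The gene g240 had 27.7, 36.4 and 24.8 CPM in the V3 libraries and 0 CPM in all 3 KO libraries. It had 7.50, 10.7 and 15.5 CPM in WT cells, so that every V3 library lay above every WT library. Against the floor it was at least 137-fold higher in V3 than in KO cells. The gene g4436 had 50.3, 64.5 and 53.4 CPM in V3 cells, against 0.233, 0 and 0 CPM in KO cells. That is a single read in KO cells and a ratio of 762, with an exact 95% interval from 136 to 30148. Its WT libraries had 5.36, 8.20 and 8.77 CPM, and V3 was above WT by a log2 difference of 2.89 (SE 0.21, edgeR adjusted p = 1.11e-21).

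The largest losses in trehalose were of g5365 and g13562. The first had 0 CPM in all 3 V3 libraries, against 4.89, 6.04 and 8.81 CPM in KO cells, and was at least 32.1-fold lower. It also had 8.04, 5.65 and 5.93 CPM in WT cells, close to its KO level, while V1 and V2 cells had 0 counts, like V3 cells. The gene g13562 had 7.53, 4.56 and 5.19 CPM in V3 cells, against 212, 217 and 252 CPM in KO cells. V3 was lower by a log2 difference of -5.30 (SE 0.14, edgeR adjusted p = 9.19e-53). WT cells stood between KO and V3 with 75.0, 71.3 and 82.0 CPM, and no library of V3, KO and WT cells overlapped with another group. V1 and V2 cells were also low, with 11.8 ± 1.65 and 17.4 ± 1.27 CPM of g13562 (SD, n = 3 each).

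After heat shock, 1799 genes were higher and 1682 lower in V3 than in KO cells, 21.8% and 20.4% of the 8264 tested. At least 2-fold higher were 682 (8.25%) and at least 2-fold lower 462 (5.59%), of which 311 and 225 had a mean under 10 CPM. At least 16-fold higher were 95 genes, against 17 that were lower. Genes over 1000 CPM again showed more losses than gains, 124 against 56 of 187, but 28 of these abundant genes were at least 2-fold higher and 4 at least 2-fold lower.

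The largest gains after heat shock were of g241 and g238, whose numbers lie beside that of g240. The gene g241 had 1579, 1569 and 1567 CPM in V3 cells, against 0.256, 0 and 0 CPM in KO cells. With 1 read in KO cells, the ratio is 21472, with an exact 95% interval from 3853 to 848125. WT cells had 1229, 1111 and 1344 CPM, all under the V3 libraries, and V3 was above WT by a log2 difference of 0.35 (SE 0.09, edgeR adjusted p = 0.00115).

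The gene g238 had 3256, 3277 and 3187 CPM in V3 cells after heat shock, against 0.256, 0.227 and 0.374 CPM in KO cells. The log2 difference was 13.32 (SE 0.21, edgeR adjusted p = 7.76e-55). WT cells had 2721, 2558 and 2387 CPM of it, and V3 was again above WT, by 0.34 (SE 0.09, adjusted p = 0.00147). In trehalose the same gene had 14.7, 16.3 and 12.7 CPM in V3 cells and 0 CPM in the KO libraries, at least 66.4-fold higher. For g240 after heat shock, V3 cells had 6569.6, 6870.4 and 6576 CPM and KO cells 0.768, 0.909 and 0.934 CPM, a log2 difference of 12.86 (SE 0.19, edgeR adjusted p = 1.52e-56). WT cells had 5952, 5666 and 5546 CPM of g240, and the difference of V3 from WT, 0.22 (SE 0.09), missed the threshold at an adjusted p of 0.0524. All 3 genes were thus nearly silent in KO cells after heat and at or above the WT level in V3 cells. Other lines also had high levels after heat shock, and g240 had 7046 ± 607 CPM in V1, 6143 ± 81.8 CPM in V2 and 6596 ± 1009 CPM in Dma cells (SD, n = 3 each). V4 cells, with 0.822 ± 0.377 CPM of g240, lay around the KO level.

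The largest losses after heat shock were of g5569 and g5568, which have consecutive numbers. The first had 0 CPM in the V3 libraries, against 8.19, 12.7 and 9.52 CPM in KO cells, and was at least 47.0-fold lower. The second had 0.696, 0.449 and 0.392 CPM in V3 cells, against 54.5, 63.4 and 54.3 CPM in KO cells, a log2 difference of -6.73 (SE 0.36, edgeR adjusted p = 2.01e-25). WT cells expressed both, with 6.40, 2.91 and 5.39 CPM of g5569 and 24.8, 18.2 and 29.6 CPM of g5568. V3 was below WT as well as below KO for each, as for g5365 and g13562. After rehydration g5568 was likewise lower in V3 than in WT cells, by a log2 difference of -6.27 (SE 0.35, edgeR adjusted p = 1.71e-12). Every rescue line had low levels of g5568. After heat shock their means ran from 0.512 CPM in V3 to 5.42 CPM in Dma cells, against 57.4 CPM in KO and 24.2 CPM in WT cells. After rehydration they were 0.416 CPM in V3, 0.689 CPM in V1, 0.486 CPM in V2, 1.61 CPM in V4 and 2.66 CPM in V5-6 cells, against 34.0 CPM in WT cells.

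**Figure D1:**
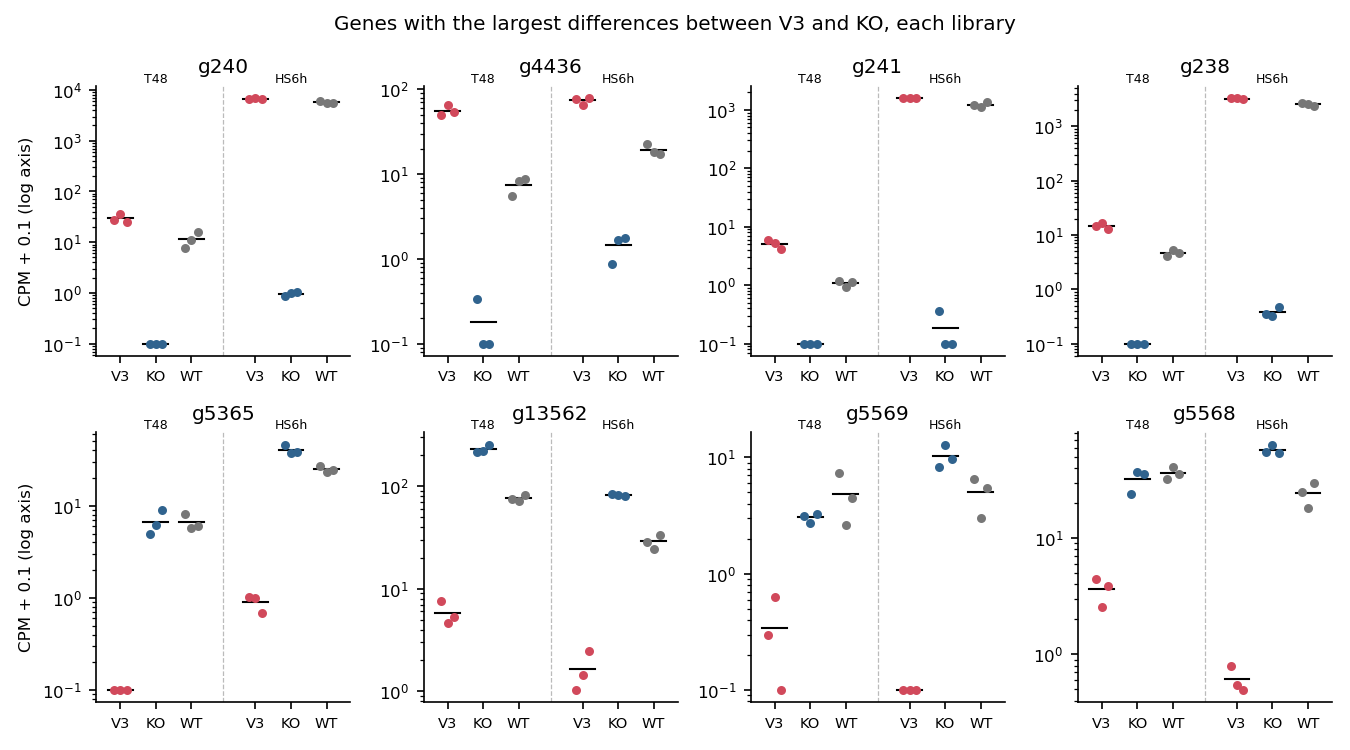
Levels of the genes with the largest differences between V3 and KO, in CPM + 0.1 on a log axis, with a point for each library and a bar for the mean of 3 libraries. Genes of the upper row are higher in V3 and WT libraries than in KO libraries, which are at or near 0. Levels of some are low in trehalose, where WT libraries have 1.07, 0.848 and 1.03 CPM of g241. Genes of the lower row are low in V3 libraries and present in both KO and WT libraries.

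The comparisons in trehalose and after heat shock share no library, and 7826 genes were tested in both. Of these, 750 (9.58%) were higher in V3 than in KO cells in both treatments and 810 (10.4%) were lower in both. The 750 are 50.1% of the 1497 higher in trehalose and 43.3% of the 1733 higher after heat shock. The 810 are 49.5% of the 1636 lower in trehalose and 50.2% of the 1615 lower after heat shock. Opposite calls were made for 316 genes, of which 188 were lower in trehalose and higher after heat shock and 128 the reverse. Across the 7826 genes, log2 differences in trehalose and after heat shock had a Pearson r of 0.639 and a Spearman rho of 0.430. This is a description across genes, which are not independent replicates, and both treatments used the same cell lines.

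By the smaller of their 2 log2 differences, g240 and g238 led the genes higher in both treatments, and g5365 and g13562 the genes lower in both. After heat shock g5365 had 0.928, 0.897 and 0.588 CPM in V3 cells, against 45.8, 37.5 and 38.3 CPM in KO cells, a log2 difference of -5.61 (SE 0.35, edgeR adjusted p = 2.65e-22). The heat shock libraries of g13562 had 0.928, 1.35 and 2.35 CPM in V3 cells, against 84.0, 81.6 and 79.6 CPM in KO cells, a log2 difference of -5.65 (SE 0.25, edgeR adjusted p = 1.04e-29). V3 and KO libraries were far from overlapping for both genes. WT cells lay between V3 and KO after heat shock, with 26.9, 22.9 and 24.2 CPM of g5365 and 28.6, 24.4 and 33.1 CPM of g13562, while in trehalose they did so for g13562 but not for g5365.

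**Figure D2:**
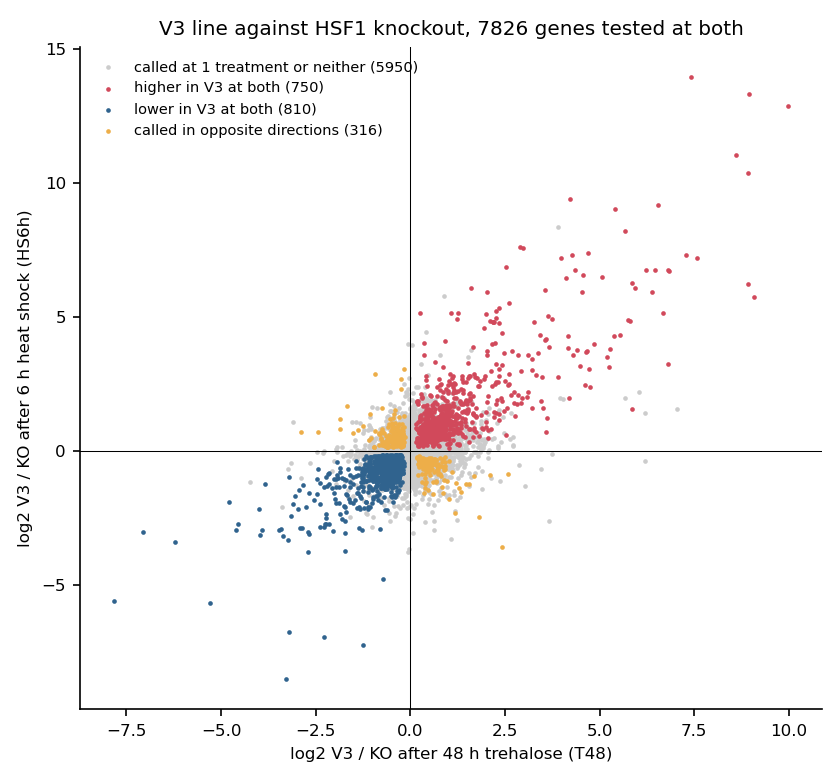
Log2 difference of V3 from KO after 48 h of trehalose (horizontal) and after 6 h of heat shock (vertical), with a point for each of the 7826 genes tested in both. The 750 genes higher and the 810 lower in both treatments fill 2 quadrants, and the 316 genes with opposite calls fill the other two.

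Whether the difference between V3 and KO itself changed with the treatment was tested as an interaction in a fit of all 72 libraries. Of 9231 genes, 1246 (13.5%) had a larger log2 difference after heat shock than in trehalose and 1011 (11.0%) a smaller one. Among them were nearly all genes with opposite calls, 187 of the 188 higher after heat shock and 128 of the 128 lower. The libraries compared in the interaction also gave those calls, and effects called in opposite directions differ by more than either effect alone. These counts are therefore nearly fixed by how the genes were chosen, and nothing further is read from them. Of the 795 genes called higher after heat shock and not called in trehalose, 372 passed the interaction test in that direction. For the other 423 a difference between the treatments was not shown. The same held for 356 of the 619 called higher in trehalose and not called after heat shock, where 263 passed.

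The genes with the largest interactions had low counts in at least 1 treatment. V3 cells had 16.7, 16.6 and 17.1 CPM of g12573 after heat shock, against 0.256, 0.909 and 0.934 CPM in KO cells. In trehalose it had 0 CPM in the V3 libraries and 0, 0.525 and 0 CPM in KO cells. Its interaction of 7.41 (SE 2.41, edgeR adjusted p = 0.0163) rests on that 1 KO library, and without it the adjusted p was 1.00. V3 cells had 12.5, 16.4 and 10.2 CPM of g15830 after heat shock, against 0.256, 0 and 0 CPM in KO cells, a ratio of 176 with an exact 95% interval from 31.2 to 7004. In trehalose no V3 or KO library exceeded 1 CPM of g15830. Its interaction was 6.87 (SE 1.84, edgeR adjusted p = 0.00311), with an adjusted p of 0.223 without KO library 3 of trehalose.

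In the opposite direction, g275 had 8.32, 9.64 and 10.7 CPM in V3 cells in trehalose, against 0.466, 0 and 0.375 CPM in KO cells. The log2 difference was 4.86 (SE 0.62, edgeR adjusted p = 1.55e-10). After heat shock it had 0 CPM in V3 cells and 0.512, 0 and 0.747 CPM in KO cells, so the gain was not seen there, and the interaction was -9.22 (SE 2.06, edgeR adjusted p = 0.000312). Against the floor, g275 was only at least 2.03-fold lower in V3 than in KO cells after heat shock, so the counts do not fix the size of that interaction. The levels of g14318 in trehalose were 7.73, 6.48 and 7.79 CPM in V3 cells and 1.86, 2.36 and 2.62 CPM in KO cells, with no overlap. After heat shock they were 0 CPM in V3 cells and 1.02, 0.909 and 1.49 CPM in KO cells, and the interaction was -7.35 (SE 1.52, edgeR adjusted p = 9.45e-05). Its size is likewise not fixed, and against the floor g14318 was at least 5.41-fold lower in V3 than in KO cells after heat shock. WT cells also had less of g14318 after heat shock, 0.565, 0.364 and 0.359 CPM, against 12.6, 12.7 and 12.1 CPM in trehalose.

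How far V3 restored what KO cells had lost was read in libraries that did not choose the genes. In trehalose, 406 genes were at least 2-fold lower in KO than in WT cells. After heat shock 355 of them passed the filter on low counts, and 192 were higher and 28 lower in V3 than in KO cells. That is 54.1% higher, against 21.8% of all genes tested, with a median log2 difference of 0.79, against 0.00 over all genes. Relative to the mean of the WT libraries, the median log2(CPM + 0.5) of these genes lay between 0.21 and 0.36 in the V3 libraries and between -0.60 and -0.55 in the KO libraries. The V3 libraries all lay above the KO libraries and above the WT mean. V1 libraries, between 0.17 and 0.26, and Dma libraries, between 0.12 and 0.23, overlapped with V3, while V4 libraries lay between -0.49 and -0.47. Against WT, 115 were higher and 59 lower in V3 cells, 32.4% and 16.6%, where 15.9% and 15.1% of all genes tested were. This comparison shares the V3 libraries with the one above.

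Read the other way, 354 genes were at least 2-fold lower in KO than in WT cells after heat shock, and 302 of them passed the filter in trehalose. There 170 were higher and 17 lower in V3 than in KO cells, 56.3% higher against 19.5% of all genes, with a median log2 difference of 0.84. The libraries again kept apart, with medians relative to WT between 0.17 and 0.19 in V3 cells and between -0.73 and -0.66 in KO cells. Against WT, 81 were higher and 40 lower in V3 cells, 26.8% and 13.2%, where 10.8% and 13.6% of all genes tested were, with a median of 0.13.

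Genes that the knockout had raised were lowered in part in V3 cells. Of the 161 at least 2-fold higher in KO than in WT cells in trehalose, 150 were tested after heat shock, and 64 were lower (42.7%) and 22 higher in V3 than in KO cells. The background for lower calls is 20.4%, and the median log2 difference was -0.41. Library medians relative to WT lay between 0.34 and 0.38 in V3 cells and between 0.92 and 1.07 in KO cells. V3 cells thus stood between KO and WT. So did V1 cells, between 0.19 and 0.38, and V4 cells, between 0.33 and 0.41. Of the 208 raised in KO cells after heat shock, 177 were tested in trehalose, and 75 were lower (42.4%, background 20.0%) and 29 higher, with a median of -0.39. There the V3 libraries lay between 0.19 and 0.23 and the KO libraries between 0.73 and 0.77. These counts cover the genes that passed the filter, which a gene can pass through the group where it is high, and they describe the lists.

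**Figure D3:**
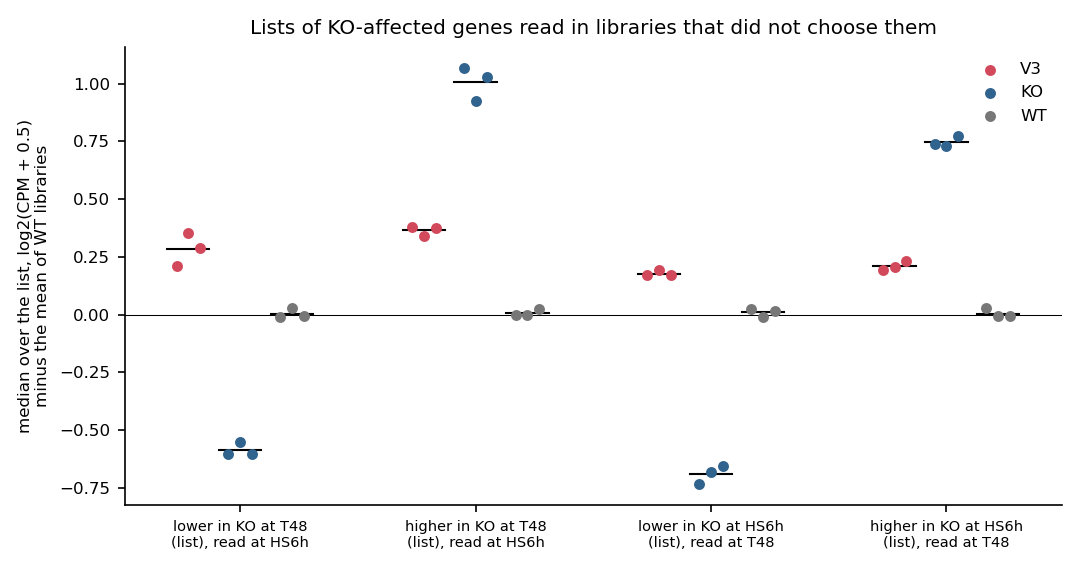
Median over each list of log2(CPM + 0.5) minus the mean of the WT libraries, with a point for each library and a bar for the mean of 3, for genes chosen as lower or higher in KO than WT in 1 treatment and read in the other. V3 libraries lie above WT in all 4 lists, between 0.17 and 0.38, while KO libraries lie below WT in both lists of lost genes and above V3 in both lists of raised genes.

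In WT cells 314 genes were at least 4-fold higher after heat shock than in trehalose, and 295 of them were tested after heat shock. There 76 were higher (25.8%) and 62 lower (21.0%) in V3 than in KO cells, where 21.8% and 20.4% of all genes tested were, with a median of -0.02. The balance depended on the fold minimum, and with 2-fold in place of 4-fold 18.9% were higher and 30.0% lower in V3 than in KO cells. Set against V1 cells, which share no library with the choice of the list either, V3 cells were lower for 104 of the 295 genes and higher for 8. The background of V3 against V1 after heat shock is 11.6% lower and 10.4% higher, while the list had 35.3% lower and 2.71% higher, with a median log2 difference of -0.61 against -0.01 over all genes. Against V2 cells the list had 45 lower and 30 higher, with a background of 12.7% and 13.5%, and a median of -0.18. The V1 and V2 comparisons share the V3 libraries. V1 stood alone among the lines after heat shock. Relative to WT, whose libraries chose the list, the mean of its library medians was 0.27. It was -0.20 in V3, -0.11 in V2, -0.20 in V4, -0.14 in V5-6, -0.24 in Dma, -0.28 in Dmb and -0.08 in KO cells.

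Genes raised by rehydration in WT cells, at least 4-fold higher at R24 than at T48, numbered 357, of which 242 were tested after heat shock. There 36 were higher and 63 lower in V3 than in KO cells, 14.9% and 26.0%, against 21.8% and 20.4% of all genes tested, with a median of -0.19. Against V1 cells 60 were lower (24.8%) and 12 higher (4.96%), with a median of -0.28. V1 was again the highest group. Relative to WT, the mean of its library medians after heat shock was 0.24, against 0.16 in KO and -0.04 in V3 cells. The other lines lay between -0.08 in V4 and 0.06 in Dmb cells. In trehalose 175 were tested, and 45 were higher (25.7%) and 19 lower (10.9%) in V3 than in KO cells, where 19.5% and 20.0% of all genes tested were, with a median of 0.18 against 0.02 over all genes. The median of the list was above that of all genes in trehalose and below it after heat shock, and the difference between those 2 values was not tested for the list.

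Genes gained in V3 cells often had consecutive numbers. Of the 682 genes at least 2-fold higher in V3 than in KO cells after heat shock, 37.1% had an adjacent number that was called the same way, against 9.63% of all genes tested. In trehalose the shares were 28.7% and 8.48%. For losses they were 23.4% and 6.78% after heat shock, and 24.7% and 3.57% in trehalose. The deposited IDs carry no coordinates, so whether adjacent numbers are neighbours in the genome was not checked, and reads of overlapping genes could be counted in each. No pair of adjacent members in these runs had the same counts throughout.

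After heat shock, 14 runs of at least 4 consecutive numbers held 103 genes that were all at least 2-fold higher in V3 than in KO cells. The runs were chosen by these values, and those named here were picked after their values were seen. In trehalose, in libraries that did not choose them, 88 of the 103 were tested, and 70 were higher and 4 lower in V3 than in KO cells, where 19.5% and 20.0% of all genes tested were. In KO cells 91 of the 103 were called lower than in WT cells after heat shock, where 15.0% of all genes tested were. That comparison shares the KO libraries, so nothing is read from its count.

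The runs fell into kinds by what WT cells did. In 6 runs with 44 genes, most members were higher in WT cells after heat shock than in trehalose, and in 7 runs with 55 genes most were lower. Of all genes tested, 28.5% were higher and 28.7% lower. The 7 genes of g236 to g242, which hold g238, g240 and g241, summed to 32223, 32561 and 31771 CPM in V3 cells after heat shock, against 11.8, 9.77 and 12.0 CPM in KO cells. WT cells had 31483, 30201 and 32166 CPM, which overlap with V3. In trehalose the same 7 genes summed to 123, 120.2 and 116 CPM in V3 cells, to 0, 0 and 0.375 CPM in KO cells and to 41.8, 54.3 and 52.1 CPM in WT cells. Their sums came to between 3.18% and 3.26% of the TMM-scaled library sizes of the V3 libraries after heat shock. Because of that scaling, these values are not shares of the counts in each library.

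The other 5 heat-raised runs lay on both sides of WT. In g5645 to g5649, g10585 to g10588 and g17049 to g17060 all V3 libraries were below all WT libraries after heat shock, and in g14577 to g14583 and g16200 to g16208 all were above. The 5 genes of g5645 to g5649 summed to 22643, 23765 and 21245 CPM in V3 cells after heat shock, against 848, 789 and 825 CPM in KO cells and 57061, 60669 and 54789.9 CPM in WT cells. The 12 genes of g17049 to g17060 summed to 6103, 6572 and 5127 CPM in V3 cells, against 111, 135 and 115 CPM in KO cells and 10212, 11143 and 9952 CPM in WT cells. The 7 genes of g14577 to g14583 summed to 2182, 2195 and 2146 CPM in V3 cells, against 103, 110 and 119 CPM in KO cells and 1464, 1506 and 1492 CPM in WT cells. V1 cells had more than V3 cells of g5645 to g5649 and g17049 to g17060, 52303, 54101 and 61591 CPM of the first run and 14167, 14541 and 17661 CPM of the second. V1 cells had less of g14577 to g14583, 1286, 1305 and 1300 CPM. Of the 7 members of that run, however, only 1 was called higher in V3 than in WT cells and 0 lower. For all genes tested these shares were 15.9% and 15.1%. Likewise 1 of the 7 was called higher in V3 than in V1 cells and 0 lower. Over the 44 genes of the 6 heat-raised runs, V3 was higher than V1 for 1 and lower for 23, where 10.4% of all genes tested were higher and 11.6% lower. These counts of members use the V3 libraries that chose the runs and are a description.

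In the 7 runs whose members were mostly lower in WT cells after heat shock than in trehalose, V3 cells mostly exceeded WT cells after heat shock. The 13 genes of g17480 to g17492 summed to 1662, 1666 and 1547 CPM in V3 cells after heat shock, against 191, 212 and 234 CPM in KO cells and 372, 433 and 399 CPM in WT cells. V1 cells had 826, 922 and 1187 CPM and V2 cells 571, 562 and 583 CPM, so that V3 had the most of these groups. In trehalose the V3 libraries had 2534, 2690.4 and 2725 CPM, against 492, 557 and 462 CPM in KO cells and 991, 864 and 1012 CPM in WT cells. V2 cells had more than V3 cells in trehalose, 4699, 4788 and 4570.4 CPM, so that V3 led after heat shock and V2 in trehalose.

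The same contrast held across the 55 genes. After heat shock V3 was higher than WT for 49 and lower for 0, higher than V1 for 27 and lower for 1, and higher than V2 for 48 and lower for 0, by edgeR at an adjusted p under 0.05. These 3 comparisons share the V3 libraries that chose the runs and are given as a description. In trehalose, where the genes were not chosen, 47 of the 55 were higher and 3 lower in V3 than in KO cells, against 19.5% and 20.0% of all genes tested. V4 cells had 11.2, 12.0 and 12.6 CPM of g236 to g242 after heat shock, which overlaps with KO cells, and 319, 281 and 255 CPM of g17480 to g17492, which lies above KO and below WT cells.

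**Figure D4:**
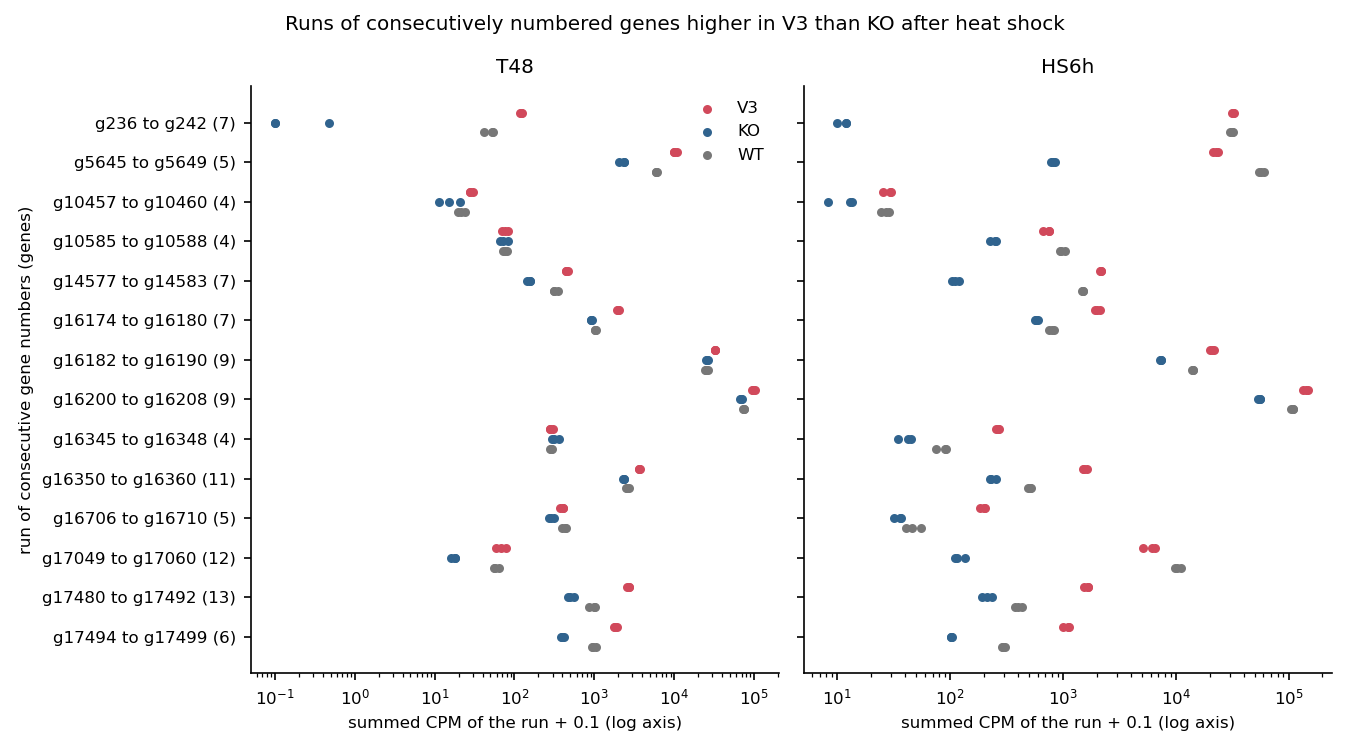
Summed CPM + 0.1 on a log axis of each of the 14 runs of consecutively numbered genes chosen as at least 2-fold higher in V3 than KO after heat shock, with a point for each V3, KO and WT library in trehalose (left) and after heat shock (right). V3 libraries lie right of KO libraries in all 14 runs after heat shock, as chosen, close to WT in g236 to g242 and above WT in g17480 to g17492.

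Against WT, V3 cells differed by fewer genes than against KO. In trehalose 892 were higher and 1125 lower in V3 than in WT cells, 10.8% and 13.6% of those tested, and after heat shock 1316 (15.9%) and 1247 (15.1%). In all, V3 differed from WT by 2017 genes in trehalose and 2563 after heat shock. KO cells differed from the same WT libraries by 2338 and 2306, so V3 had fewer calls than KO in trehalose and more after heat shock. Among the rescue lines in trehalose, V3 differed by the fewest genes from V5-6, with 1647 called (20.0%), and V4, with 1663 (20.1%), and by the most from Dmb, with 3081 (37.3%). After heat shock it differed by the fewest from V1, with 1815 (22.0%), and again by the most from Dmb, with 3971 (48.1%). From V2 it differed by 2890 genes in trehalose (35.0%) and 2165 after heat shock (26.2%). The counts for V3 share its libraries, and the differences between all these counts were not tested.

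Few genes set V3 apart from all 8 other genotypes at once. In trehalose 17 genes were higher in V3 than in each of them (0.206% of those tested) and 19 lower (0.230%), and after heat shock 158 were higher (1.91%) and 72 lower (0.871%). Both treatments shared 5 such higher and 3 such lower genes. The 5 were g11871, g11872, g11877, g11879 and g12833, and all but g12833 have numbers close together, so they may not be independent. These 8 genes passed the threshold in each of the 16 contrasts, and 0 genes were set apart in opposite directions. After rehydration, against V1, V2, V4, V5-6 and WT, 15 of the 158 were again set apart as higher and 1 of the 72 as lower, where 0.571% and 0.683% of all genes tested were. Many of the 15 also have close numbers, among them g17480, g17482, g17483, g17486, g17487 and g17490. Against WT alone at that stage, 74 of the 158 were higher and 10 lower in V3 cells (15.3% and 15.2% of all genes tested).

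The gene g4855 led in trehalose, with 59.6, 63.2 and 63.4 CPM in V3 cells, against 5.36, 6.04 and 5.06 CPM in KO cells and 3.22, 10.5 and 5.41 CPM in WT cells. The nearest line was V2, with 23.1, 26.6 and 27.5 CPM, from which V3 differed by a log2 difference of 1.25 (SE 0.17, edgeR adjusted p = 9.53e-10). No library of another genotype reached the V3 range. After heat shock g4855 was at most 3.14 CPM in any V3 library. The gene g3617 had 26.7, 34.3 and 33.5 CPM in V3 cells in trehalose, against 13.0, 16.5 and 13.3 CPM in KO cells and 1.07, 0.565 and 0 CPM in WT cells. Here KO cells were the nearest group, with V3 above them by a log2 difference of 1.14 (SE 0.26, edgeR adjusted p = 0.000153), and KO was itself above WT. Lower in V3 than elsewhere were g13562, described above, and the abundant g10408, with 1648, 1633 and 1351 CPM in V3 cells, against 3038, 2829 and 2749 CPM in KO cells and 2185, 2117 and 2272 CPM in WT cells. After heat shock V3 had a mean of 6.52 CPM of g3617, below KO (9.38 CPM) and V1 (23.8 CPM) and above the other genotypes. The mean of g10408 was then 5631 CPM in V3, above Dma (5411 CPM) and Dmb (4779 CPM) and below the other genotypes, with 5790 CPM in WT.

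After heat shock g8843 and g17486 led the genes set apart as higher. The first had 26.7, 28.3 and 22.9 CPM in V3 cells, against 0.256, 0 and 0.374 CPM in KO cells, a ratio of 118 with an exact 95% interval from 39.9 to 573. WT cells had 0.941, 1.82 and 1.62 CPM of it and the nearest line, V2, 5.64, 7.46 and 8.62 CPM, from which V3 differed by a log2 difference of 1.84 (SE 0.37, edgeR adjusted p = 7.06e-05). No V2 or WT library came near the V3 range. In trehalose V3 libraries, with 8.72, 7.18 and 3.75 CPM of g8843, overlapped with V2 libraries, with 9.11, 4.35 and 2.90 CPM. After rehydration its mean was 97.5 CPM in V3, below 107 CPM in V1, 142 CPM in V2 and 103 CPM in V5-6 cells. It was above 15.9 CPM in V4 and 55.5 CPM in WT cells. The gene g17486, a member of the run from g17480, had 60.1, 51.8 and 61.2 CPM in V3 cells, against 0, 0 and 0.187 CPM in KO cells and 0.941, 0.546 and 0.180 CPM in WT cells. In trehalose it had 189, 191 and 199 CPM in V3 cells, against 2.56, 1.57 and 1.87 CPM in KO cells and 39.4, 29.4 and 27.8 CPM in WT cells. V2 cells had more of g17486 than V3 cells in trehalose, 348, 359 and 352 CPM, and less after heat shock, 7.42, 7.46 and 7.42 CPM.

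Set apart as lower after heat shock were g2384 and g12224. The first had 184, 188 and 210.2 CPM in V3 cells, against 666, 678 and 766 CPM in KO cells and 551, 566 and 590.4 CPM in WT cells. The nearest line was V2, from which V3 differed by a log2 difference of -1.20 (SE 0.07, edgeR adjusted p = 2.59e-21). In trehalose g2384 was also lower in V3 than in KO cells, by a log2 difference of -0.84 (SE 0.06, edgeR adjusted p = 4.38e-22), but V1 cells overlapped with V3. The gene g12224 had 49.0, 45.3 and 45.1 CPM in V3 cells, against 122, 153 and 139 CPM in KO cells and 87.1, 97.4 and 111 CPM in WT cells. In trehalose its order was the reverse, with 108, 109.7 and 111 CPM in V3 cells, against 83.2, 85.3 and 84.0 CPM in KO cells. Its interaction was -1.95 (SE 0.24, edgeR adjusted p = 3.28e-10).

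Of the genes set apart in both treatments, g11872 and g11879, whose numbers are close, led those higher. V3 cells had 47.8, 59.4 and 51.9 CPM of g11872 in trehalose, against 20.3, 29.4 and 27.6 CPM in KO cells and 26.5, 24.6 and 27.3 CPM in WT cells. After heat shock they had 70.5, 65.1 and 59.8 CPM, against 35.8, 35.0 and 41.1 CPM in KO cells and 37.5, 41.9 and 32.7 CPM in WT cells. KO and WT libraries overlapped in both treatments for g11872, and all V3 libraries lay above them. V3 cells had 51.3, 62.5 and 56.2 CPM of g11879 in trehalose and 41.3, 45.5 and 40.2 CPM after heat shock. KO cells had 20.3, 24.4 and 25.7 CPM of it in trehalose and 19.7, 25.0 and 17.7 CPM after heat shock, and all V3 libraries lay above these.

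Lower in both were g6748 and g15389, and also g13562, which is given last. The first had 160.1, 149 and 148 CPM in V3 cells in trehalose, against 302, 319 and 334 CPM in KO cells. The second had 107, 106 and 105 CPM in V3 cells after heat shock, against 228, 249 and 250.1 CPM in KO cells and 218, 247 and 248 CPM in WT cells. No V3 library overlapped with KO for either. The margin to the nearest genotype was small, -0.22 on the log2 scale for each. In trehalose g15389 was no longer set apart without V3 library 2, with a margin of -0.22, or without V3 library 3, with a margin of -0.17. Neither gene was lowest in V3 cells by such a margin after rehydration. There g15389 had 69.7 ± 11.1 CPM in V3 cells, above 42.5 ± 3.03 CPM in WT cells (SD, n = 3 each). The mean of g6748 was 100.3 CPM in V3, 99.6 CPM in V1, 98.2 CPM in V2 and 135 CPM in WT cells. The gene g13562 was lower in V3 by at least 1.07 on the log2 scale in trehalose and 1.09 after heat shock. It was not ranked because a Dma library, with 2.31 CPM after heat shock, lay below the highest V3 library, with 2.35 CPM. After rehydration g13562 was again set apart, by 1.49, with 0.519 ± 0.385 CPM in V3 and 1.48 ± 0.978 CPM in V1 cells (SD, n = 3 each).

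**Figure D5:**
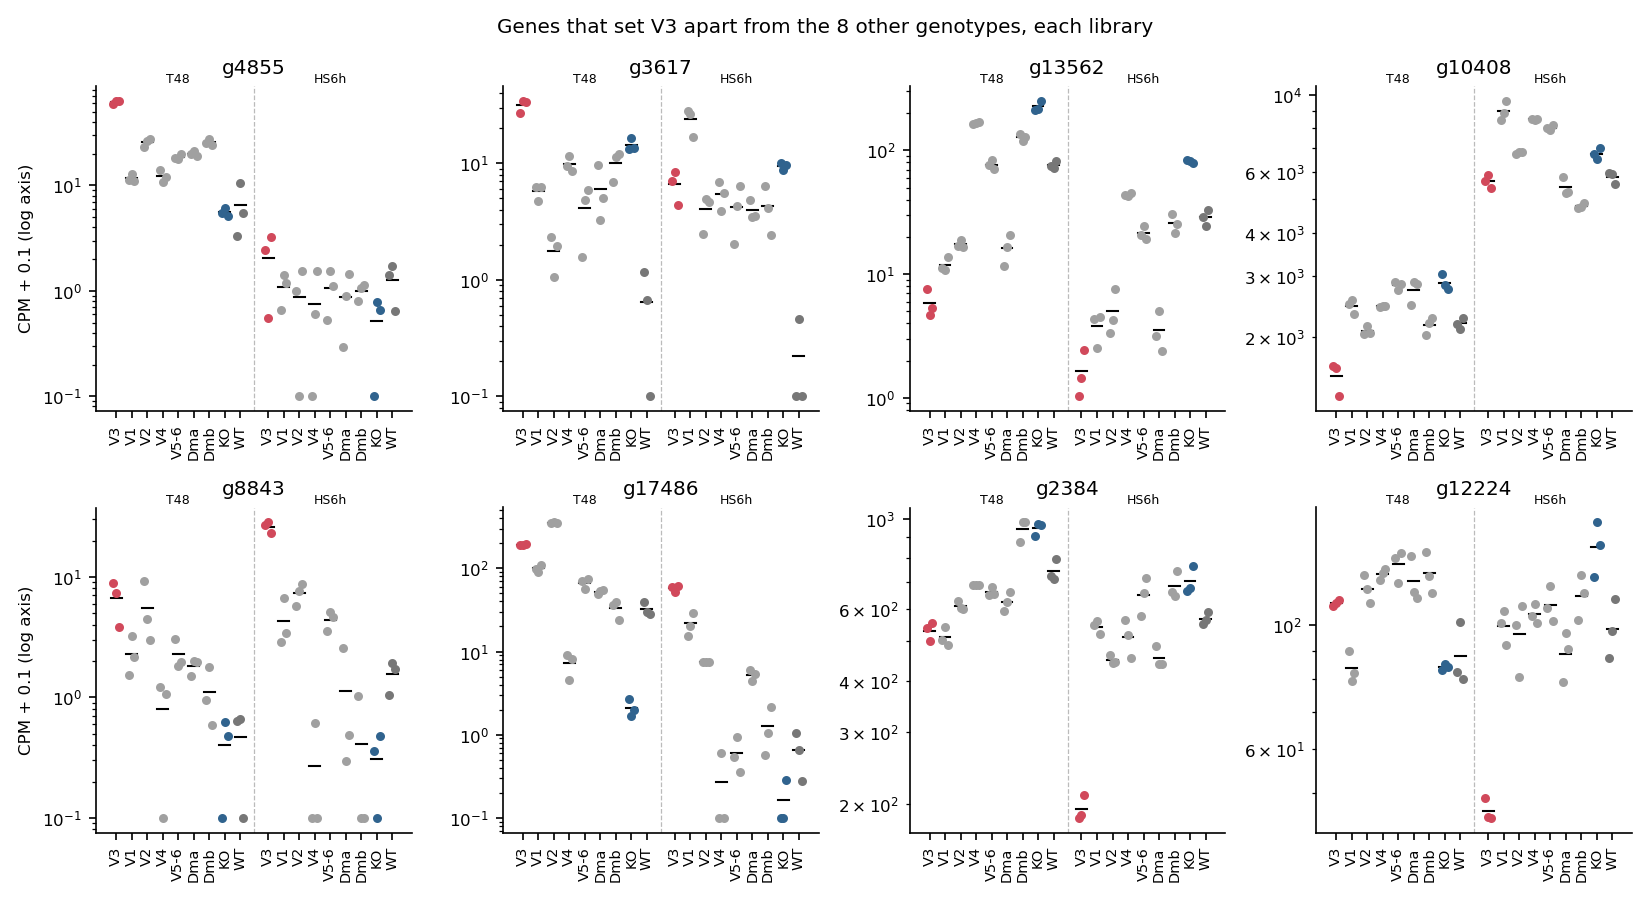
Levels of 8 genes that set V3 apart from the 8 other genotypes in trehalose (upper row) or after heat shock (lower row), in CPM + 0.1 on a log axis, with a point for each library and a bar for the mean of 3 libraries, V3 in red, KO in blue. In trehalose the V3 libraries lie outside all others for the genes of the upper row, and after heat shock they do so for the genes of the lower row.

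Genes that distinguished V3 from WT cells after rehydration were read in the other treatments, whose libraries did not choose them. At least 2-fold higher in V3 than in WT cells at R24 were 279 genes, of which 210 were tested in trehalose and 222 after heat shock. In trehalose 130 of the 210 were higher (61.9%) and 19 lower in V3 than in KO cells, against 19.5% and 20.0% of all genes tested, with a median log2 difference of 1.13. After heat shock 138 of the 222 were higher (62.2%) and 12 lower, against 21.8% and 20.4%, with a median of 1.37. Relative to WT, the library medians after heat shock lay between 1.42 and 1.52 in V3 cells and between -0.14 and 0.09 in KO cells, so that V3 libraries lay above WT and KO libraries around it. V1 libraries, between 0.83 and 0.98, V2 libraries, between 0.89 and 0.97, and Dma libraries, between 0.64 and 0.79, were also above WT, though below V3, while V4 libraries lay between 0.00 and 0.03. In trehalose V2 libraries, between 1.20 and 1.26, were above the V3 libraries, between 1.05 and 1.10.

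At least 2-fold lower in V3 than in WT cells at R24 were 413 genes. Of the 322 tested in trehalose, 102 were lower (31.7%) and 44 higher (13.7%) in V3 than in KO cells, against 20.0% and 19.5% of all genes tested, with a median of -0.18. Of the 299 tested after heat shock, 111 were lower (37.1%) and 38 higher (12.7%), against 20.4% and 21.8%, with a median of -0.44. Relative to WT, their medians after heat shock lay between -0.62 and -0.60 in V3 cells and between -0.21 and -0.09 in KO cells, and in trehalose between -0.52 and -0.45 in V3 cells and between -0.43 and -0.30 in KO cells. V3 libraries were thus below the KO libraries without overlap in both treatments, and both groups were below WT. V2 libraries overlapped with V3 after heat shock, between -0.60 and -0.54, and lay lower in trehalose, between -0.82 and -0.74.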

How the data were processed

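The deposited table holds raw counts from the authors, integer reads for each transcript with no scaling. The tools, per the submitters' processing notes, were FastQC 0.11.9, Trimmomatic 0.39, HISAT2 2.2.1 and HTSeq 2.0.9. The genome build, the annotation and the strand setting are not given in the sources used here, so overlapping and antisense genes, and near-identical copies, are uncertain. It has 65235 transcripts from 17156 genes. Its 5 special rows, such as the one for reads outside features, entered neither the library sizes nor the tests. A read appears to be counted in each transcript it overlaps, so each gene was given its transcript with the highest total over all libraries.

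Counts were analysed with edgeR 4.0.16 in R 4.3.3, with filterByExpr, TMM scaling, the quasi-likelihood test and Benjamini-Hochberg adjusted p under 0.05 over all genes tested. Each treatment was fitted over its 27 libraries with 18 residual degrees of freedom, and effects were compared across treatments in 1 fit of 72 libraries. The SE is the absolute log2 difference over the square root of F. The labels give no batch and no shared replicate numbers. Exact 95% intervals of ratios are conditional binomial intervals. A gene was set apart when V3 differed from each other genotype in the same direction. The named genes are the 2 with the largest difference each way per comparison, among called genes whose libraries did not overlap and whose mean reached 5 CPM in at least 1 group. For genes set apart they rank by the smallest of their differences, and a gene named once is also given elsewhere. DESeq2 1.42.0, upper quartile scaling, no filter, sums over transcripts, other sets of libraries, other fold minimums, a robust fit added later and leaving out each library were the alternatives. The fits were tested on simulated data. The comparison, the lists and the runs were chosen with earlier results of these data known.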

Additional observations from a re-analysis of the deposited data

Results flagged for a closer look

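Differences between the treatments in the effect of V3 over KO were flagged because the interaction itself passed edgeR's quasi-likelihood test at an adjusted p under 0.05. The effect was higher after heat shock than in trehalose for 1246 genes and lower for 1011 of the 9231 tested. Among the named genes, the difference of log2 effects was 7.41 for g12573, 6.87 for g15830, -9.22 for g275 and -7.35 for g14318. V3 cells had 0 counts of g12573 in trehalose and of g275 and g14318 after heat shock, so the size of those differences is not fixed by the counts. The genes g12573 and g15830 lost their call without trehalose KO library 2 and trehalose KO library 3, with adjusted p of 1.00 and 0.223. Groups of 3 libraries are too small for the test of single outlying libraries.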

How the results depend on the processing

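No paired analysis was possible because the labels give no shared replicate numbers. Every count of called genes between V3 and KO, WT, V1 or V2, of interactions and of genes set apart stayed within 1.5 times its value under each alternative run. V3 against KO gave between 2816 and 3268 genes in trehalose and between 3100 and 3473 after heat shock, with 3234 and 3472 by DESeq2. Without each V3 library in turn, 160 to 216 genes were set apart after heat shock, against 230 with all of them. Which direction held more calls changed with upper quartile scaling after heat shock, where 48.0% of the calls of V3 against KO were higher (51.7% with TMM) and 44.0% of those against WT (51.3%). Against Dmb this scaling gave 41.8% higher (52.5% with TMM) and shifted the median log2 difference by -0.11.

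The lists moved with the fold minimum. With 4-fold, genes lost in KO cells in trehalose were 75.0% higher and 5.00% lower in V3 than in KO cells after heat shock, and those lost after heat shock were 77.2% higher and 1.27% lower in trehalose. With 2-fold, the list raised by heat in WT cells was 13.2% higher and 28.4% lower in V3 than in KO cells in trehalose (25.6% and 17.3% with 4-fold), and 18.9% higher and 30.0% lower after heat shock (25.8% and 21.0%), so that the balance turned to lower calls in both. With 4-fold, genes lower in V3 than in WT at R24 were 47.0% lower in trehalose, and 8.57% higher and 48.6% lower after heat shock. With sums over transcripts, the share of called genes with an adjacent number called alike was 41.6% for higher genes in trehalose (44.2% otherwise), 38.1% for lower genes in trehalose (42.0%) and 38.5% for lower genes after heat shock (43.3%). The cause of these shifts was not tested.

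Of the single genes, g15389 was no longer set apart in trehalose with no filter, with sums over transcripts or without V3 library 2 or 3, and g6748 after heat shock with sums over transcripts. Genes at or near 0 counts are limited by depth, and a difference that missed the threshold was not detectable here and is not shown to be absent.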

Other observations

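A single gene of the 17156, g3611, had every library of the 5 lines with a Pv isoform above every library of KO, WT, Dma and Dmb in both trehalose and heat shock, at a minimum of 2 CPM. It was singled out after its values were seen, and its ID is not paired with a name. V3 cells had 1149, 1357 and 1226 CPM of it in trehalose, against 545, 609 and 689 CPM in KO cells and 471, 490.0 and 474 CPM in WT cells. After heat shock V3 cells had 803, 814 and 831 CPM, against 248, 304 and 241 CPM in KO cells and 181, 165 and 175 CPM in WT cells. V1 cells had more than V3 cells in trehalose, with 1545, 1499 and 1578 CPM.

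Of the 14 runs with gains, g16200 to g16208 had the highest summed level in V3 cells after heat shock. Its 9 members summed to 143577, 148860.0 and 134422 CPM in V3 cells after heat shock, against 55552, 53174 and 55507 CPM in KO cells and 104736, 110486 and 108915 CPM in WT cells. In trehalose they summed to 97396, 93525 and 101885 CPM in V3 cells, against 71031, 67472 and 69509.7 CPM in KO cells and 74809.8, 72153 and 75837 CPM in WT cells. V3 libraries lay above KO and WT libraries without overlap in both treatments. V1 cells overlapped with V3 after heat shock, with 132561, 134063 and 152186 CPM, and V2 cells had more in trehalose, 112960.4, 114167 and 106702 CPM. The run was chosen by its heat shock values and picked after they were seen.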
